A study of Mus musculus with 8 samples.

Results

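Smooth muscle contractile genes are described here in the mouse uterus over the estrous cycle. They are 31 named genes that encode the actin and myosin machinery of smooth muscle, its anchorage, its calcium, potassium and cGMP control and 2 of its transcription factors. Each was found by its symbol in the deposited table of 52308 genes, and all 31 were among the 18114 genes with enough counts to be tested. Whole-uterus RNA came from ICR females, an outbred mouse stock, aged 6-8 weeks, that were in proestrus, estrus, metestrus or diestrus by vaginal smear. RNA-seq libraries of polyadenylated RNA were made from 1 µg of total RNA, 2 for each stage and 8 in all. No transgene, mutation or treatment is named for any group. The labels do not say that the 2 libraries of a stage were made from different mice, so p-values reflect only the spread among these libraries, and that spread may be technical. The series title concerns estrogen and another gene, and these genes are compared between the stages that follow each other and between the 2 opposite pairs.

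Smooth muscle contracts when calcium enters the cell or leaves its stores, binds calmodulin and turns on myosin light chain kinase, so that phosphorylated myosin pulls on actin filaments. A phosphatase reverses this, and cGMP-dependent kinase favours relaxation through that phosphatase, potassium channels and lower calcium release. In the uterus this machinery fills the myometrium, the muscle coat, and is also found in the walls of blood vessels. The transcription factor SRF, with its cofactor myocardin, binds a DNA element called the CArG box near many of these genes.

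The deposited counts summed to between 17863546 and 21896786 per library. CPM, the counts scaled to a common library size after TMM normalisation, are given for each library as library 1 and library 2 of a stage, in the order proestrus, estrus, metestrus, diestrus. Changes are log2 fold changes ± SE from edgeR's quasi-likelihood fit to all 8 libraries, with p adjusted over all genes tested by Benjamini-Hochberg and a threshold of 0.05. In a tissue extract, fewer cells of a type and less RNA per cell cannot be told apart. Acta2, Myh11, Cnn1 and Des, defining markers of smooth muscle, each had at least 572.8 CPM in every library, whereas Tagln had 5.24 to 17.0 CPM. Per kilobase of exon, and averaged over the 8 libraries, Acta2 had the highest level with 1772 CPM per kb, ahead of Myl9 with 918 and Actg2 with 693. The lowest levels on that scale were those of Pln with 1.15 and Kcnma1 with 0.869 CPM per kb.

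The 2 diestrus libraries stood apart in these genes. Summed over the 31 genes, diestrus library 1 held 34477 CPM and diestrus library 2 held 15972 CPM, the highest and the lowest sums of the 8 libraries. The other 6 sums were 22730 and 17506 CPM for proestrus, 21742 and 19565 CPM for estrus, and 21675 and 17749 CPM for metestrus. Scaled by raw library totals instead, diestrus library 1 was still the highest at 35002 CPM. On that scale the lowest was proestrus library 2 at 16745 CPM, with 17730 CPM in diestrus library 2. All 31 genes were higher in diestrus library 1 than in library 2, whereas 49.3% of all genes tested were. The median ratio of library 1 to library 2 was 1.86, and 14 of the 31 genes differed by more than 2-fold. Actg2, the enteric gamma actin, had the widest ratio at 3.94, and Srf the narrowest at 1.14.

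The same order of the 2 libraries was found in other stages, with smaller gaps. Library 1 was the higher one for 31 of the 31 genes in proestrus, 22 in estrus and 28 in metestrus, against 52.1%, 51.3% and 48.2% of all genes tested. The median ratio was 1.29 in proestrus, 1.04 in estrus and 1.21 in metestrus. What lies behind this shared order of the libraries was not tested. No stage other than diestrus had a contractile gene that differed by more than 2-fold between its libraries. The mean of the 2 diestrus libraries therefore stands for values that often lie far apart.

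**Figure D1:**
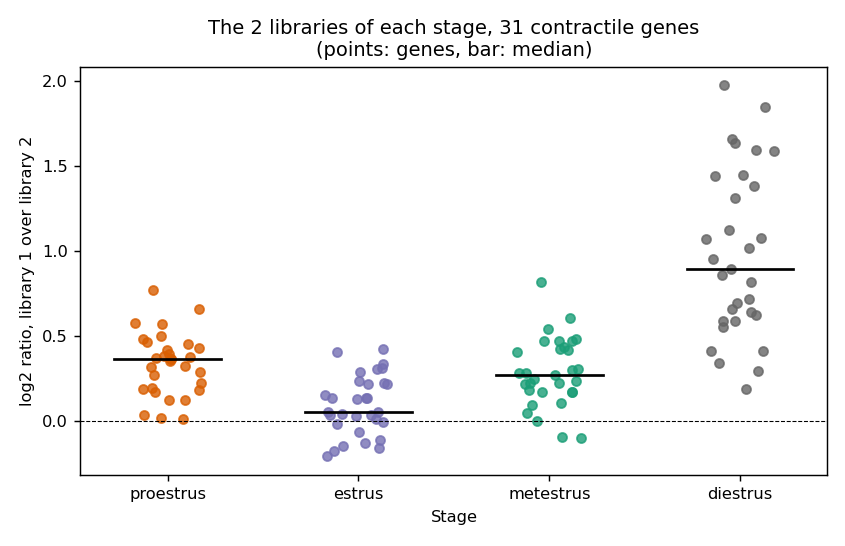
Log2 ratio of the CPM in library 1 to the CPM in library 2 of each stage (vertical axis), with 1 point for each of the 31 contractile genes and a bar at the median. All 31 points lie above 0 in proestrus and in diestrus, where the median ratio is 1.29 and 1.86.

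Markers of other cell types also moved between libraries, and their part in the results was not tested. The 10 epithelial markers summed to 6367 and 5319 CPM in proestrus, 4905 and 4510 CPM in estrus, 1468 and 1345 CPM in metestrus, and 937 and 1390 CPM in diestrus. The sum of the 10 stromal markers was lowest in estrus, at 14347 and 9480 CPM, and was 15434 to 25536 CPM in the other libraries. Col1a1, Col1a2, Col3a1 and Lum had their lowest values in the 2 estrus libraries, whereas Pdgfra, Hand2, Dcn, Vim, Hoxa10 and Hoxa11 did not. Pdgfra had 493 and 370 CPM in estrus and 218 and 306 CPM in proestrus. The sums of the 10 markers of vascular smooth muscle and pericytes lay between 568 and 1173 CPM, with diestrus library 1 the highest. Among 6 markers of the mesothelium, which covers the outer surface of the uterus, Msln reached 25.4 CPM in the first diestrus library and 2.62 CPM in the second. Upk3b had 33.3 and 8.12 CPM, Lrrn4 10.6 and 2.77 CPM and Upk1b 5.31 and 1.82 CPM in those libraries. Wt1, the highest of the 6, differed little, with 134 and 122 CPM, and Krt5 had at most 0.0504 CPM in both. Msln, Upk3b, Upk1b, Lrrn4 and Wt1 each had their highest value of the 8 libraries in diestrus library 1, and Krt5 did not. The sum of the 6 markers was 209 CPM there and 183 and 170 CPM in metestrus. Upk3b had 25.98 and 27.46 CPM in metestrus. Of the 14 skeletal muscle markers, Acta1 was the highest at 102 to 298 CPM. Tnni2 had 93.1 and 29.3 CPM and Tnnt3 36.6 and 10.6 CPM in diestrus libraries 1 and 2, each with its highest value in library 1. Tnnc2 had no count in any library, and Myh4 reached 5.39 CPM in metestrus library 2 and had no count elsewhere. The fat cell gene Adipoq was at 4.88 CPM in that same library and at 2.26 CPM in proestrus library 1. The sums of the 8 fat cell markers were 57.2 CPM in metestrus library 2 and 68.3 CPM in proestrus library 1. Diestrus library 1 had the highest sum, 70.5 CPM, of which Pck1 made up 44.8 CPM and Lipe most of the rest. Adipoq, Plin1, Cidec, Lep and Cfd had no count in that library. Cfd was highest in metestrus library 2 and proestrus library 1, at 19.5 and 15.6 CPM. Of the 4 bladder urothelium markers, the uroplakins Upk1a, Upk2 and Upk3a had at most 2.16 CPM in any library, while Krt20 had 38.1 and 9.53 CPM in proestrus, 115 and 30.9 CPM in estrus, and at most 0.450 CPM in metestrus and diestrus.

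**Figure D2:**
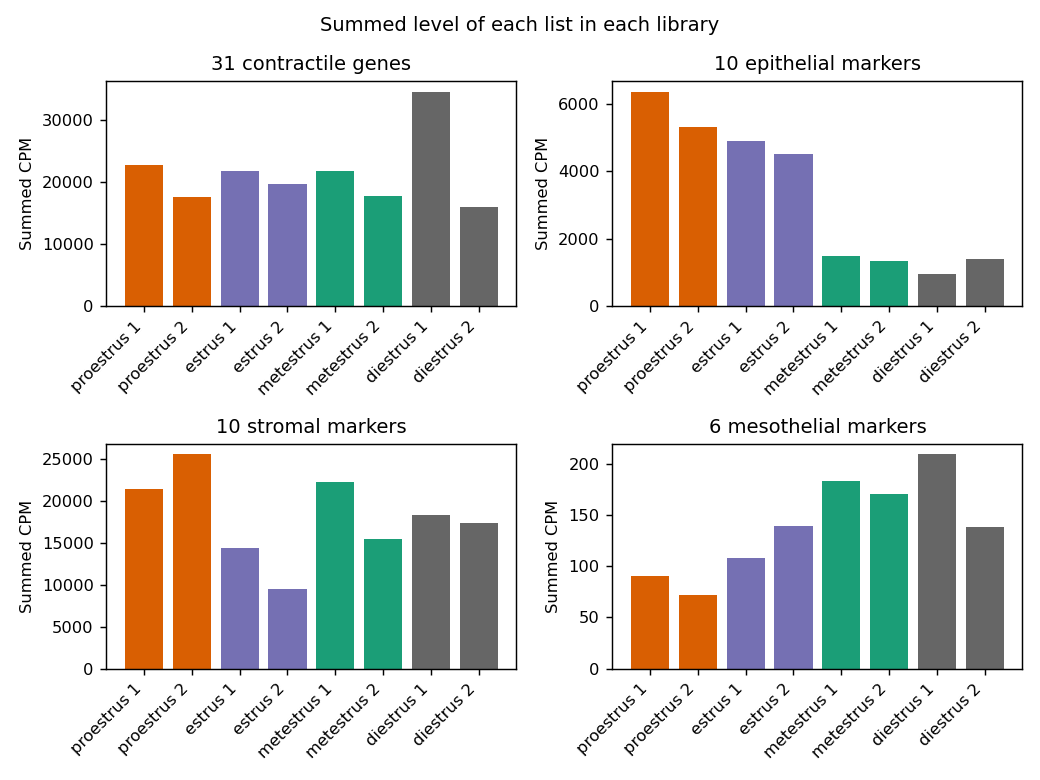
Summed CPM (vertical axes) in each of the 8 libraries for the 31 contractile genes and for 10 epithelial, 10 stromal and 6 mesothelial markers, with bars coloured by stage. With TMM normalisation, diestrus library 1 and diestrus library 2 hold the highest and the lowest sum of the contractile genes, 34477 and 15972 CPM.

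Across the 4 stages, the genes that changed were Itga8, Prkg1, Synpo2 and Srf. In GENCODE M21 on GRCm38, all on the minus strand, Itga8 lies at chr2:12106632-12301922, Prkg1 at chr19:30564489-31765033, Synpo2 at chr3:123076519-123236149 and Srf at chr17:46548329-46556175. These are 4 of the 31 genes, or 12.9%, whereas 39.1% of all genes tested passed the same test. The main proteins of the filaments, among them the actins, smooth muscle myosin, calponin and desmin, did not pass it. The level was highest in diestrus for 17 of the 31 genes by the mean of its libraries, in estrus for 7, in proestrus for 4 and in metestrus for 3. Without diestrus library 1 the test across stages called 17 of the 31 genes, against 47.5% of all genes, and without diestrus library 2 it called 26, against 50.3%. It called 2 without estrus library 2, against 17.4%, and 2 without proestrus library 2, against 23.9%. Scaling on the geometric mean of the 31 genes themselves, a setting chosen after seeing the data, left 0 called by edgeR, against 14.6% of all genes, with adjusted p-values of 0.0674 for Itga8, 0.525 for Srf, 0.539 for Synpo2 and 0.585 for Prkg1. That scaling shifted the median of all genes by -0.27 to 0.34 on the log2 scale, depending on the pair of stages, and under it the median change of the 31 genes lay between -0.10 and 0.06. This scaling makes the mean log level of the 31 genes the same in all libraries, so a median near 0 was fixed in advance. The other sign of that median for estrus over proestrus, metestrus over estrus and diestrus over metestrus therefore shows no change of direction.

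**Figure D3:**
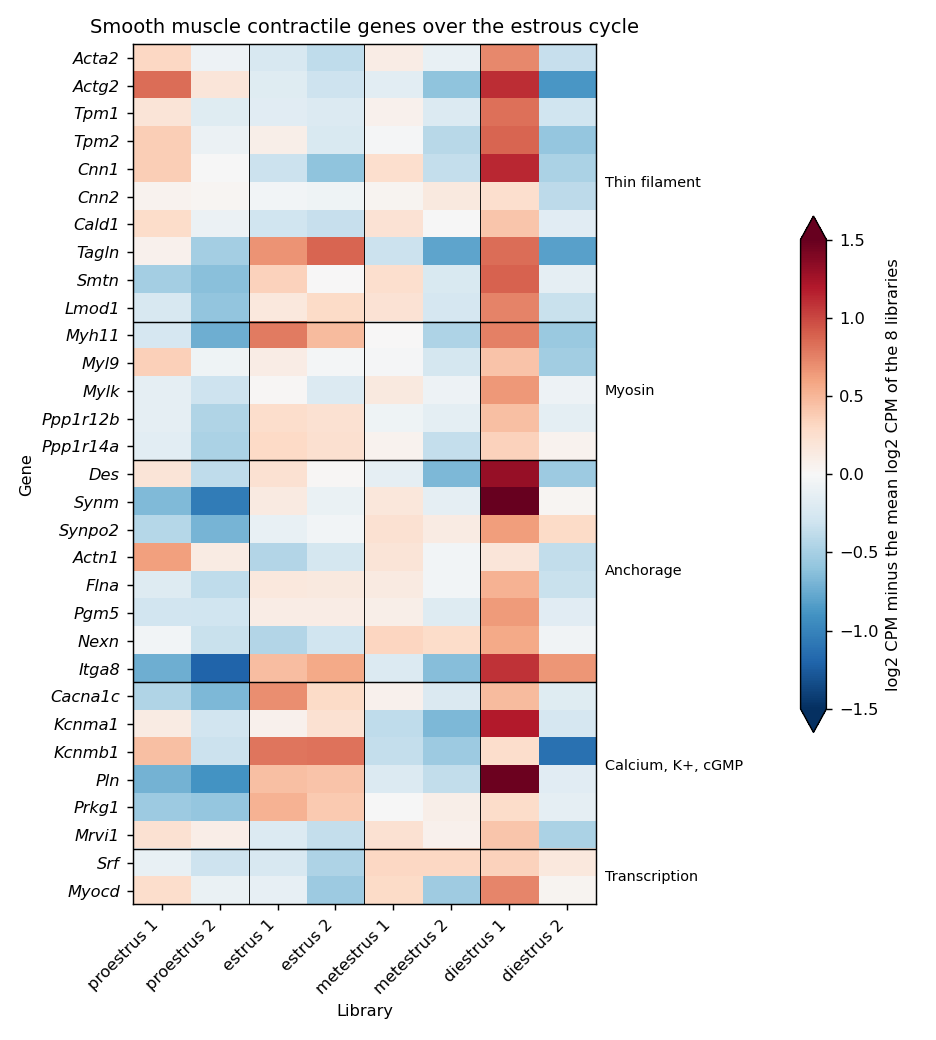
Log2 CPM of each of the 31 contractile genes (rows, grouped by role) in each library (columns), shown as the difference from the gene's mean over the 8 libraries; colours end at ±1.5. Diestrus library 1 is the darkest red column and diestrus library 2 is mostly blue, and Itga8 is blue in both proestrus libraries at 13.0 and 9.43 CPM.

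Srf encodes serum response factor, which switches on the contractile genes. It had 118 and 103 CPM in proestrus, 108 and 92.7 CPM in estrus, 158.1 and 158.2 CPM in metestrus, and 162 and 143 CPM in diestrus. Both metestrus and both diestrus libraries lay above the 4 libraries of proestrus and estrus, without overlap. Srf rose in metestrus relative to estrus by 0.65 ± 0.13 (log2, adjusted p = 0.0114) and relative to proestrus by 0.51 ± 0.13 (adjusted p = 0.0423). It was lower in estrus than in diestrus with a log2 change of -0.60 ± 0.13 (adjusted p = 0.0209) and lower in proestrus than in diestrus with a log2 change of -0.46 ± 0.13 (adjusted p = 0.0482). The call across stages had an adjusted p of 0.0189, which became 0.0689 without estrus library 2, 0.0567 without metestrus library 1 and 0.0574 without metestrus library 2. For metestrus over estrus the adjusted p without those same libraries was 0.0687, 0.0513 and 0.054. The difference of estrus from diestrus had an adjusted p of 0.0547 without estrus library 1, 0.118 without estrus library 2 and 0.0737 in a fit to the 4 libraries of the pair.

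The other 2 Srf calls were the least stable. The difference of metestrus from proestrus was lost without estrus library 1 (adjusted p = 0.0525), estrus library 2 (0.0636), metestrus library 1 (0.142), metestrus library 2 (0.157), proestrus library 1 (0.126) or proestrus library 2 (0.144). The difference of proestrus from diestrus held in 1 of the 8 fits that left out a library, the one without diestrus library 2 (adjusted p = 0.0334), and its adjusted p reached 0.193 without proestrus library 2. It had an adjusted p of 0.0994 without diestrus library 1, 0.114 without proestrus library 1, 0.0601 and 0.069 without estrus libraries 1 and 2, and 0.084 and 0.0834 without metestrus libraries 1 and 2. Myocd encodes myocardin, the cofactor of SRF in smooth and heart muscle, and had 28.7 and 22.3 CPM in proestrus, 21.96 and 16.4 CPM in estrus, 29.1 and 16.5 CPM in metestrus, and 39.8 and 24.6 CPM in diestrus. Both estrus libraries lay below those of proestrus and diestrus, and metestrus overlapped every other stage. Myocd did not pass the test across stages (adjusted p = 0.337).

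The promoters of 26 of the 31 genes were found in RefSeq, and the 250 bases before each annotated start were searched for the CArG box. The box is 10 bases long, CC and GG around a core of 6 A or T bases, and it reads as the same motif on both strands. A box was found for 3 of the 26 genes (11.5%), against 439 of 27025 genes with an entry (1.62%). Where a CArG-like element was also allowed, with 1 core base that is G or C, 6 of the 26 genes (23.1%) and 2643 of all genes (9.78%) held one. Actg2, Myh11, Myocd, Nexn and Tagln had no entry. The windows of the 3 genes with a box are printed 5′ to 3′ on the strand of the gene, from RefSeq with build GRCm38.p6, with CArG boxes and CArG-like elements in capitals. They are Srf itself at chr17:46556163-46556412 on the minus strand, Myl9 at chr2:156775214-156775463 on the plus strand, and Cnn2 at chr10:79988350-79988599 on the plus strand.
Srf: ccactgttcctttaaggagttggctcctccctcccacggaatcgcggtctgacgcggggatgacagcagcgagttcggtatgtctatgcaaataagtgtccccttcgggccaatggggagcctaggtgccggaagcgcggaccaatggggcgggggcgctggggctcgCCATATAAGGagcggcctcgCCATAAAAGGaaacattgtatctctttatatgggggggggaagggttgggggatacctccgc
Myl9: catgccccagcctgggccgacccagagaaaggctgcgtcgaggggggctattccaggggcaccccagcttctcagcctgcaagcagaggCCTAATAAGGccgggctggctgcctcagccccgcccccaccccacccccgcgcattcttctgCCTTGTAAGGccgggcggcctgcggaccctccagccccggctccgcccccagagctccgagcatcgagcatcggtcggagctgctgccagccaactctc
Cnn2: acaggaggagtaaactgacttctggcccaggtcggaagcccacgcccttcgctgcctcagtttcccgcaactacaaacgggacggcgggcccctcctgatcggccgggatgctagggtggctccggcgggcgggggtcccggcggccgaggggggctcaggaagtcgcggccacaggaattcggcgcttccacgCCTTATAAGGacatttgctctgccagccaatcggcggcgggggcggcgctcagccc

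The Srf window holds 2 CArG boxes that begin 82 and 62 bases before the gene start. In Myl9 the box begins 161 bases before the start and a CArG-like element 99 bases before it, and in Cnn2 the box begins 56 bases before the start. Acta2 has 2 CArG-like elements, CCCTATATGG at 84 and CCTTGTTTGG at 34 bases before its start. Cacna1c has 2 windows of its own with an element each, on the minus strand: CCTTCATTGG lies 84 bases before the start that follows chr6:118757975-118758224, within the gene, and CCAAGAAAGG 30 bases before the start that follows chr6:119196410-119196659. Synm has CCTCATAAGG at 239 bases. Of these 6 genes, Srf, Cacna1c and Synm passed across stages or in a pair, while Myl9, Cnn2 and Acta2 did not. The share that passed is near the 50.5% of all genes tested that passed in this way. A match is a description of the letters in this window and does not show binding.

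The thin filament genes encode the actins and the proteins that lie along them. They are Acta2 and Actg2 (smooth muscle actins), Tpm1 and Tpm2 (tropomyosins), Cnn1 and Cnn2 (calponins), Cald1 (caldesmon), Tagln (transgelin), Smtn (smoothelin) and Lmod1 (leiomodin, which nucleates actin filaments). With edgeR none of the 10 passed across stages or in a pair, whereas Smtn and Tagln had an unadjusted p under 0.05 in 1 pair each. DESeq2 called those same 2 genes and limma-voom called 0. Without diestrus library 1 edgeR called 5 of the 10 in at least one comparison, and without diestrus library 2 it called 9. Of all genes tested, 50.5% passed in at least one comparison with edgeR on all 8 libraries, 54.6% with DESeq2, 49.6% with limma-voom, 57.6% without diestrus library 1 and 59.8% without diestrus library 2.

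Acta2 had 4691 and 3572 CPM in proestrus, 3190 and 2905 CPM in estrus, 4084 and 3503 CPM in metestrus, and 6224 and 2967 CPM in diestrus. The 2 estrus libraries lay below those of proestrus and metestrus, while diestrus library 1 was the highest of the 8 and diestrus library 2 close to the lowest. The log2 change of estrus over proestrus was -0.44 ± 0.34 (adjusted p = 0.407). Actg2, the actin typical of visceral muscle, had 1742 and 1101 CPM in proestrus, 859 and 783 CPM in estrus, 869.989 and 643 CPM in metestrus, and 2097 and 533 CPM in diestrus. Both proestrus libraries lay above those of estrus and metestrus, and the log2 change of estrus over proestrus was -0.79 ± 0.58 (adjusted p = 0.381). Cnn1 had 1131 and 871 CPM in proestrus, 699 and 573 CPM in estrus, 1039.8 and 682 CPM in metestrus, and 1906 and 630.4 CPM in diestrus, with both estrus libraries below both of proestrus.

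Smtn, a marker of contractile muscle cells, differed from these genes in its order of stages. It had 315 and 289.97 CPM in proestrus, 568 and 451 CPM in estrus, 536 and 383 CPM in metestrus, and 829.7 and 409.8 CPM in diestrus, so both proestrus libraries were the lowest of the 8. Its log2 change of proestrus over diestrus was -1.03 ± 0.34 (adjusted p = 0.0723). In the annotation, 16.3% of the Smtn exon bases overlap Gm11946 on the other strand.

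Tagln was counted at only 5.24 to 17.0 CPM, whereas transgelin is known as an abundant smooth muscle protein. Of its 1988 exon bases in GENCODE M21, 1241 (62.4%) overlap the antisense gene Gm48529, which had 23 to 44 counts per library, and 5.43% overlap Pcsk7. The strand setting of the counting is not given in the sources used here. It is therefore not known whether reads in the overlap were counted for Tagln, and its level and changes are uncertain. Its values were 9.64 and 6.501 CPM in proestrus, 14.7 and 17.0 CPM in estrus, 7.41 and 5.35 CPM in metestrus, and 16.6 and 5.24 CPM in diestrus. The 2 estrus libraries lay above those of proestrus and metestrus, and the log2 change of metestrus over estrus was -1.31 ± 0.52 (adjusted p = 0.0893).

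For the remaining thin filament genes the widest gap was that within diestrus. The ratio of diestrus library 1 to diestrus library 2 was 2.73 for Tpm2 (2480.4 and 907 CPM), 2.18 for Tpm1 (2574 and 1180.5 CPM), 2.11 for Lmod1 (288 and 136 CPM), 1.56 for Cnn2 and 1.501 for Cald1. Over all 8 libraries Cnn2 kept to a range of 218 to 340.4 CPM.

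Smooth muscle myosin and its regulators are Myh11 (the heavy chain), Myl9 (the regulatory light chain that is phosphorylated), Mylk (the kinase), Ppp1r12b (a targeting subunit of the phosphatase) and Ppp1r14a (CPI-17, an inhibitor of the phosphatase). Myh11 had 1784 and 1278 CPM in proestrus, 3642 and 2951 CPM in estrus, 2138 and 1544 CPM in metestrus, and 3599 and 1448 CPM in diestrus. The 2 estrus libraries lay above those of proestrus and of metestrus, while diestrus overlapped every other stage. The log2 change of estrus over proestrus was 1.11 ± 0.43 (adjusted p = 0.125), and that of metestrus over estrus was -0.84 ± 0.43 (adjusted p = 0.166). In fits to the 4 libraries of each pair these became 1.11 ± 0.21 (adjusted p = 0.029) and -0.81 ± 0.19 (adjusted p = 0.0184). For estrus over proestrus Myh11 also passed without diestrus library 1 (adjusted p = 0.0165) and without diestrus library 2 (adjusted p = 0.0172).

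With edgeR on all 8 libraries none of the 5 myosin genes passed in a comparison, while Myh11, Ppp1r12b and Ppp1r14a had an unadjusted p under 0.05 in at least one. DESeq2 called Myh11 alone, and limma-voom called 0. In the fit without diestrus library 1 edgeR called 2 of the 5, beside 57.6% of all genes, and without diestrus library 2 it called 3, beside 59.8%. Ppp1r12b had 481 and 469 CPM in estrus against 364 and 293 CPM in proestrus. Ppp1r14a had 65.7 and 63.4 CPM in estrus and 48.1 and 38.5 CPM in proestrus. For both genes the 2 stages did not overlap, whereas they overlapped for Mylk, with 1397 and 1202 CPM in estrus and 1255 and 1113 CPM in proestrus, and for Myl9, with 1126 and 1028 CPM in estrus and 1343 and 997 CPM in proestrus. In diestrus libraries 1 and 2, Myl9 had 1411 and 729 CPM, Mylk 2161 and 1313 CPM, Ppp1r12b 545 and 362 CPM and Ppp1r14a 68.0 and 55.4 CPM.

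Myosin and actin did not keep the same ratio in all libraries. Within each library, the CPM of Myh11 divided by that of Acta2 gave 0.380 and 0.358 for the proestrus libraries, 1.14 and 1.02 for estrus, 0.523 and 0.441 for metestrus and 0.578 and 0.488 for diestrus. The ratio was highest in the 2 estrus libraries and lowest in the 2 proestrus libraries, and metestrus and diestrus overlapped each other between them. The ratio of Actg2 to Acta2 gave 0.371 and 0.308 for proestrus, 0.269 and 0.270 for estrus, 0.213 and 0.184 for metestrus and 0.337 and 0.180 for diestrus. These ratios are described without a test, and they do not show which of the 2 genes changed.

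Anchorage genes encode the proteins that tie the filaments to dense bodies, to intermediate filaments and to the matrix. Itga8, the integrin alpha chain of smooth muscle that pairs with beta 1 and binds the matrix, had the smallest adjusted p across stages of the 31 genes. It had 13.0 and 9.43 CPM in proestrus, 29.9 and 32.3 CPM in estrus, 18.8 and 14.0 CPM in metestrus, and 46.0 and 34.5 CPM in diestrus. No stage overlapped another, and both libraries were lowest in proestrus and highest in diestrus.

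Itga8 rose in estrus relative to proestrus by 1.47 ± 0.24 (log2, adjusted p = 0.0137), a 2.77-fold difference. It fell in metestrus relative to estrus with a log2 change of -0.92 ± 0.23 (adjusted p = 0.0239), and was lower in proestrus than in diestrus with a log2 change of -1.84 ± 0.24 (adjusted p = 0.00436). The calls across stages (adjusted p = 0.00615) and between proestrus and diestrus held in all 8 fits that left out a library. The rise in estrus had an adjusted p of 0.0674 without estrus library 1, 0.0765 without estrus library 2 and 0.0845 without proestrus library 2. The fall in metestrus had 0.0879 and 0.103 without estrus libraries 1 and 2, and 0.0546 and 0.147 without metestrus libraries 1 and 2. Of the Itga8 exon bases, 5.05% overlap the antisense gene E030013I19Rik, which had 2 to 24 counts per library.

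Synpo2 encodes synaptopodin 2, or myopodin, which bundles actin at dense bodies. It had 304 and 252 CPM in proestrus, 378 and 396 CPM in estrus, 477 and 444 CPM in metestrus, and 626 and 495 CPM in diestrus. The libraries of each stage lay above all of the stage before it, with no overlap from proestrus to diestrus. Synpo2 was lower in proestrus than in diestrus with a log2 change of -1.01 ± 0.16 (adjusted p = 0.00766), a call that held in all 8 fits without a library but had an adjusted p of 0.0619 in the fit to the 4 libraries of the pair. It rose in metestrus relative to proestrus by 0.73 ± 0.16 (adjusted p = 0.027). That rise had an adjusted p of 0.0572 without estrus library 2, 0.126 and 0.108 without metestrus libraries 1 and 2, and 0.0861 and 0.104 without proestrus libraries 1 and 2. The call across stages (adjusted p = 0.0147) reached 0.0555 without proestrus library 2.

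Synm encodes synemin, an intermediate filament protein that joins desmin to adhesion sites. It had 44.6 and 34.2 CPM in proestrus, 77.5 and 65.8 CPM in estrus, 79.4 and 64.3 CPM in metestrus, and 217 and 72.1 CPM in diestrus. Both proestrus libraries were the lowest of the 8, and diestrus library 1 stood alone at the top. Synm was lower in proestrus than in diestrus with a log2 change of -1.87 ± 0.47 (adjusted p = 0.0338). The adjusted p was 0.062 and 0.0645 without estrus libraries 1 and 2, 0.0642 and 0.0639 without metestrus libraries 1 and 2, 0.131 and 0.146 without proestrus libraries 1 and 2, and 0.0544 with limma-voom. Without diestrus library 1 the change was -0.89 ± 0.20 (adjusted p = 0.025), and without diestrus library 2 it was -2.45 ± 0.20 (adjusted p = 0.000951).

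Nexn encodes nexilin, an actin-binding protein of adhesion sites and dense bodies. It had 36.1 and 29.6 CPM in proestrus, 27.4 and 30.3 CPM in estrus, 46.7 and 45.2 CPM in metestrus, and 55.3 and 35.9 CPM in diestrus. Both metestrus libraries lay above both of estrus and of proestrus. Of its exon bases 7.5% overlap Gm43185 on the same strand, which had 0 to 13 counts per library. Nexn rose in metestrus relative to estrus by 0.67 ± 0.21 (log2, adjusted p = 0.0487). The adjusted p was 0.176 and 0.125 without estrus libraries 1 and 2, 0.142 and 0.124 without metestrus libraries 1 and 2, 0.0568 and 0.0529 without proestrus libraries 1 and 2, and 0.0529 with limma-voom.

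The other anchorage genes did not pass across stages or in a pair. Des, which encodes desmin, the intermediate filament of muscle, had the second widest gap in diestrus, at 2666 CPM in library 1 against 741 CPM in library 2. Its other 6 values lay between 676 and 1265 CPM. Actn1, an alpha-actinin that crosslinks actin, had 268 and 303 CPM in estrus against 558 and 394 CPM in proestrus, a log2 change of -0.74 ± 0.24 (adjusted p = 0.0836). With diestrus library 1 left out that change was -0.75 ± 0.18 (adjusted p = 0.0292) and without diestrus library 2 -0.75 ± 0.18 (adjusted p = 0.0296). Flna (filamin A) had 1973 to 3711 CPM, with 3711 and 2045 CPM in diestrus libraries 1 and 2. Pgm5 (aciculin, an adhesion protein of muscle) had 176 to 339 CPM, with 339 and 192 CPM in those libraries.

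The genes of calcium, potassium and cGMP control include Cacna1c, the pore of the L-type calcium channel that lets calcium in when the cell is depolarised. Cacna1c had 78.3 and 67.0 CPM in proestrus, 174 and 131 CPM in estrus, 112 and 92.5 CPM in metestrus, and 149 and 94.4 CPM in diestrus. Both estrus libraries lay above those of proestrus and metestrus, and both proestrus libraries were the lowest of the 8. It rose in estrus relative to proestrus by 1.07 ± 0.25 (log2, adjusted p = 0.0362), or 2.10-fold. The adjusted p was 0.174 and 0.0864 without estrus libraries 1 and 2, 0.0667 and 0.0666 without metestrus libraries 1 and 2, and 0.109 and 0.176 without proestrus libraries 1 and 2. In the fit to the 4 libraries of the pair it was 0.0198.

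Prkg1 encodes cGMP-dependent protein kinase 1, which relaxes smooth muscle. It had 24.5 and 23.9 CPM in proestrus, 51.1 and 46.7 CPM in estrus, 35.5 and 37.9 CPM in metestrus, and 43.1 and 32.5 CPM in diestrus. The proestrus libraries were the lowest and the estrus libraries the highest of the 8. Prkg1 rose in estrus relative to proestrus by 1.02 ± 0.15 (log2, adjusted p = 0.0115), or 2.02-fold. It also rose in metestrus relative to proestrus by 0.60 ± 0.15 (adjusted p = 0.0423), and was lower in proestrus than in diestrus with a log2 change of -0.65 ± 0.15 (adjusted p = 0.0282).

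The calls of Prkg1 depended on the libraries of the stages compared. The rise in estrus had an adjusted p of 0.0725 and 0.0598 without estrus libraries 1 and 2, and 0.063 and 0.0751 without proestrus libraries 1 and 2. Its call across stages (adjusted p = 0.0143) had 0.063, 0.0533, 0.0709 and 0.0638 without those same 4 libraries. The rise in metestrus had 0.126 and 0.175 without metestrus libraries 1 and 2, 0.184 and 0.122 without proestrus libraries 1 and 2, 0.0657 and 0.0778 without estrus libraries 1 and 2, and 0.0511 with limma-voom. The difference of proestrus from diestrus had 0.13 and 0.106 without proestrus libraries 1 and 2, 0.0509 and 0.0566 without estrus libraries 1 and 2, 0.0558 and 0.0557 without metestrus libraries 1 and 2, and 0.115 in the fit to the 4 libraries of the pair.

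**Figure D4:**
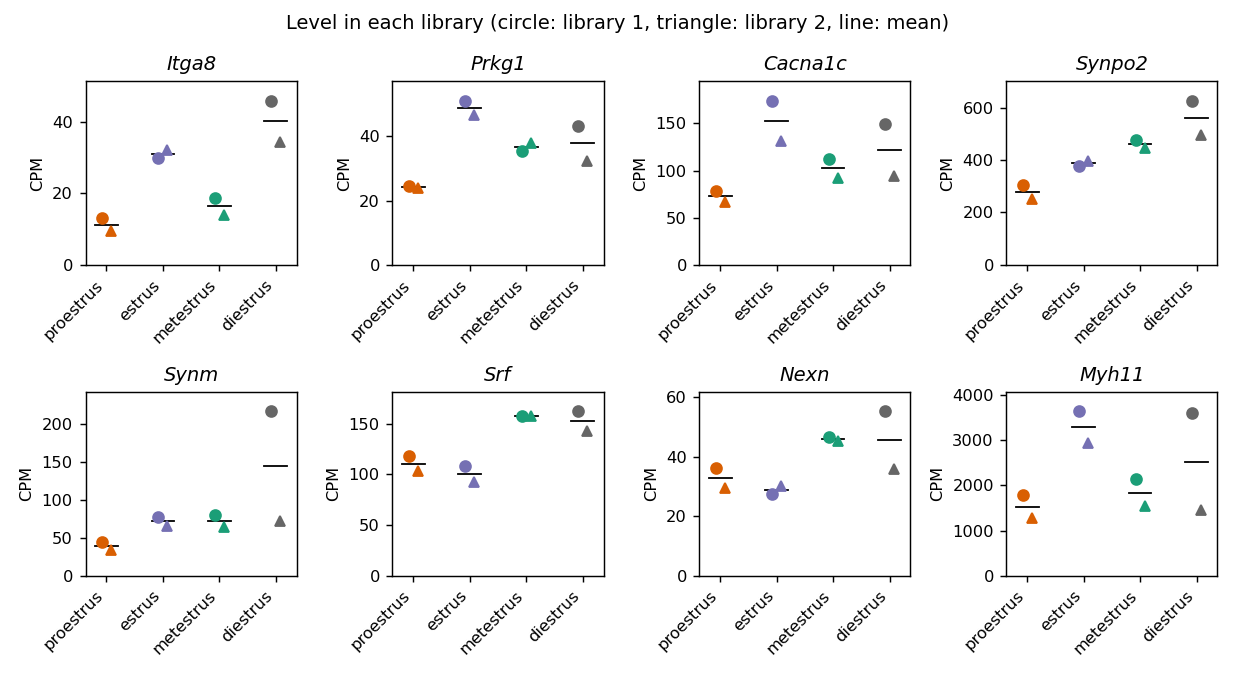
CPM (vertical axes, from 0) of the 7 contractile genes that changed in at least one comparison, and of Myh11, in each library by stage; circles are library 1, triangles library 2 and lines the mean of both. Prkg1 and Cacna1c have their lowest libraries in proestrus and Srf its highest in metestrus and diestrus, at 143 to 162 CPM.

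Both subunits of the BK potassium channel, which opens on calcium and voltage and damps contraction, were measured, and neither passed across stages or in a pair. Kcnmb1, the beta subunit of smooth muscle, had 99.3 and 58.2 CPM in proestrus, 126.9 and 128 CPM in estrus, 56.6 and 49.9 CPM in metestrus, and 87.4 and 33.5 CPM in diestrus. Its 2 estrus libraries lay above the other 6. The log2 change of metestrus over estrus was -1.26 ± 0.44 (adjusted p = 0.0649), and in the fit to the 4 libraries of the pair it was -1.23 ± 0.11 (adjusted p = 0.000902). Without diestrus library 1 it was -1.22 ± 0.23 (adjusted p = 0.00744). Kcnma1, the pore subunit, had 8.56 to 16.0 CPM in the other 7 libraries and 31.1 CPM in diestrus library 1. Within each library the CPM of Kcnmb1 divided by that of Kcnma1 gave 6.66 and 5.21 for proestrus, 8.87 and 8.04 for estrus, 5.38 and 5.835 for metestrus and 2.81 and 2.93 for diestrus. The ratio was lowest in the 2 diestrus libraries, and these were close to each other although both genes differed more than 2-fold between them.

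Pln encodes phospholamban, the brake on the calcium pump of the stores, and was among the weakest at 1.49 to 7.69 CPM. It had 3.80 and 3.72 CPM in estrus and 1.69 and 1.49 CPM in proestrus, a log2 change of 1.24 ± 0.52 for estrus over proestrus (adjusted p = 0.149). Of its exon bases 59.6% overlap Gm47644 on the other strand, which had at most 1 count per library, and 5.11% overlap Cep85l, which had 294 to 930 counts. Mrvi1 encodes a substrate of cGMP kinase on the inositol trisphosphate receptor and lay between 228 and 424 CPM, its values in diestrus libraries 2 and 1.

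Few of the 31 genes passed between estrus and proestrus. Itga8, Cacna1c and Prkg1 were called, all higher in estrus. They were 3 of 31 genes (9.68%), near the 8.12% of all genes that were called higher. Of all genes, 6.94% were called lower and 15.1% in either direction. With edgeR 0 of the 31 fell, and 1 gene, Actn1, was lower at an unadjusted p under 0.05. DESeq2 called that same gene lower, against 10.7% of all genes, and limma-voom called 0 lower. The estrus libraries lay both above both proestrus libraries for 15 of the 31 genes, among them Myh11, Smtn, Kcnmb1 and Pln, and both below for 8, among them Acta2, Actg2, Cnn1 and Myocd. Over all genes tested, 34.2% lay above and 33.3% below in this way. The median log2 change of the 31 genes was 0.21, with a range of -0.79 to 1.47, beside 0.01 over all genes tested.

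More of these genes passed when a diestrus library did not enter the estimate of the spread. For estrus over proestrus, 13 of the 31 passed without diestrus library 1 (11 higher and 2 lower, against 24.9% of all genes), and 13 without diestrus library 2 (against 24.7%). In the fit to the 4 libraries of the pair 10 passed, all higher, against 20.1%. Myh11, Smtn, Synm, Itga8, Cacna1c, Pln and Prkg1 were called in all 3 of these fits. Fewer passed when a library of the pair was left out, and the share of all genes called also fell. There were 0 without estrus library 1 (against 2.50% of all genes), estrus library 2 (2.18%) or proestrus library 2 (2.38%), and 1 without proestrus library 1 (3.83%).

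**Figure D5:**
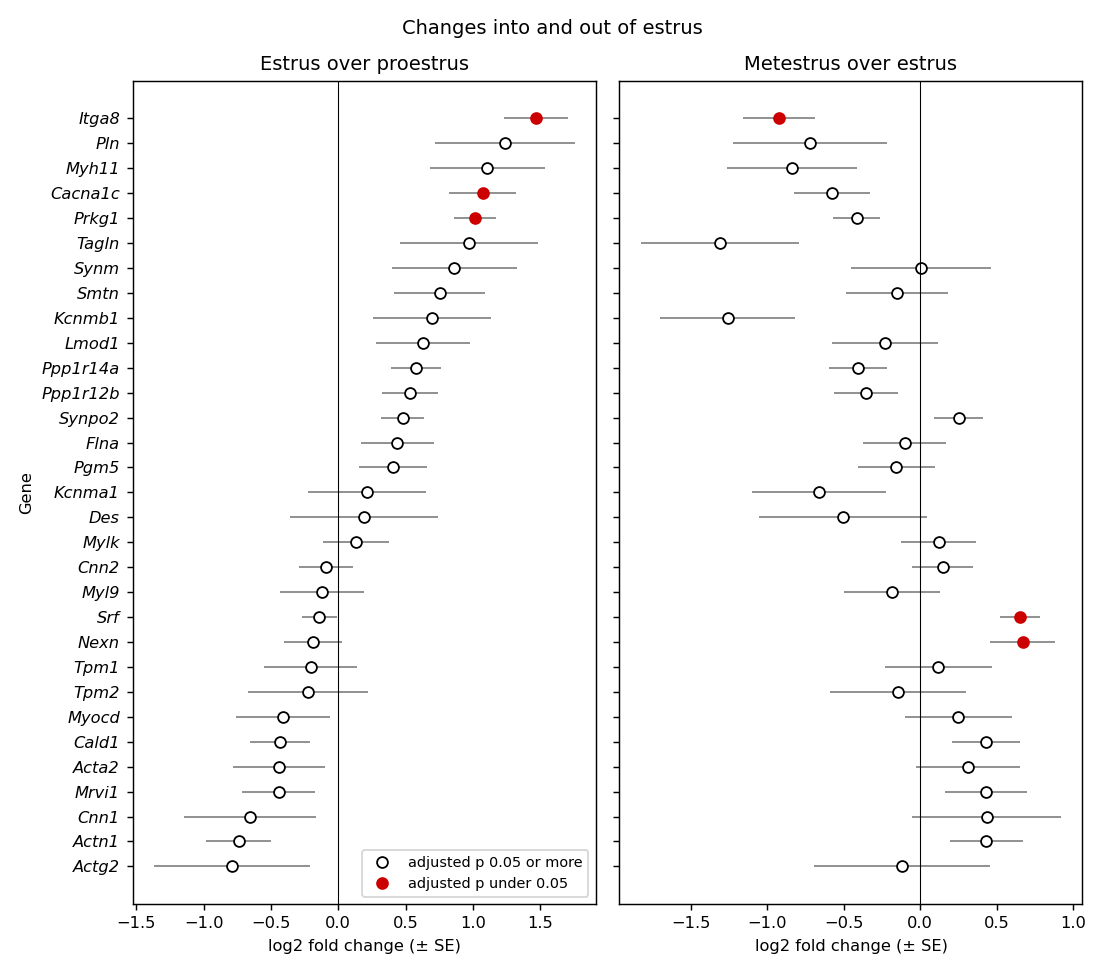
Log2 fold change ± SE of the 31 contractile genes for estrus over proestrus (left) and metestrus over estrus (right), with genes in the same order in both panels; filled points passed at an adjusted p under 0.05. Itga8 is the highest of the left panel at 1.47 and lies at -0.92 in the right panel.

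Out of estrus, Srf and Nexn rose in metestrus and Itga8 fell. These are 3 of 31 genes (9.68%), whereas 36.2% of all genes tested passed between metestrus and estrus, 16.7% higher and 19.5% lower. Both metestrus libraries lay above both estrus libraries for 8 genes, including Acta2, Cald1, Synpo2 and Mrvi1, and below for 13, including Myh11, Tagln, Kcnmb1, Cacna1c and Prkg1. Over all genes tested the shares were 36.3% and 40.2%. The median log2 change was -0.14, beside -0.05 over all genes, but it was 0.09 without metestrus library 2, with 19 of the 31 changes above 0. This comparison and the one above share the estrus libraries, so opposite signs in them are not independent.

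With diestrus library 1 left out, 11 of the 31 genes passed between metestrus and estrus (4 higher and 7 lower, against 43.6% of all genes), and without diestrus library 2 also 11. In the fit to the 4 libraries of the pair 13 passed, 5 higher and 8 lower, against 47.2%. The genes called in all 3 of these fits were Myh11, Tagln, Cald1, Itga8, Kcnmb1, Kcnma1, Cacna1c, Srf, Prkg1, Nexn and Mrvi1. There was 1 call without estrus library 1 (against 12.9% of all genes), and 0 without estrus library 2 (17.1%), metestrus library 1 (13.4%) or metestrus library 2 (11.2%).

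Between diestrus and metestrus, edgeR called 0 of the 31 genes, and 0.508% of all genes tested, 0.282% higher and 0.226% lower. At an unadjusted p under 0.05 there were 2, Itga8 with a log2 change of 1.30 ± 0.24 (adjusted p = 0.0873) and Kcnma1 with 1.16 ± 0.44 (adjusted p = 0.247). DESeq2 called 1, Itga8, against 6.40% of all genes, and limma-voom called 0. The diestrus libraries lay both above both of metestrus for Synpo2, Itga8, Kcnma1 and Pln and both below for none, beside 24.2% and 24.8% of all genes. The median log2 change of the 31 genes was 0.31, beside 0.02 over all genes.

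The direction over diestrus depended on which library stood for it. Without diestrus library 2 the median log2 change of diestrus over metestrus was 0.68, all 31 changes were above 0 and 10 genes passed, against 10.7% of all genes. Synm had the smallest adjusted p of these, with 1.56 ± 0.20 (adjusted p = 0.00864), and Des and Pln had 1.65 ± 0.28 and 1.72 ± 0.28 (adjusted p = 0.0202 and 0.0171). When library 1 was left out the median was -0.25, with 25 of the 31 changes below 0, and edgeR called 0, against 1.41% of all genes, with 4 at an unadjusted p under 0.05. Both of these fits rest on 1 diestrus library, which is assumed to vary like the other stages.

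From diestrus to the next proestrus, the genes that changed were all lower in proestrus. Synpo2, Synm, Itga8, Srf and Prkg1 were lower, 5 of 31 genes (16.1%), where 22.4% of all genes passed, 12.0% higher and 10.4% lower. Both proestrus libraries lay below both of diestrus for 11 genes and above for 0, beside 30.7% and 30.0% of all genes. The median log2 change of proestrus over diestrus was -0.47 over the 31 genes and -0.01 over all genes. Without diestrus library 2, 18 genes passed, all lower in proestrus, against 24.5% of all genes. With the first left out 8 passed, against 22.3%: Synpo2, Synm, Itga8 and Prkg1 were lower in proestrus, and Actg2 (1.40 ± 0.31, adjusted p = 0.0222), Kcnmb1 (1.21 ± 0.30, adjusted p = 0.0331), Mrvi1 and Cnn2 were higher. The fit to the 4 libraries of the pair called 1, Itga8, against 6.62% of all genes. With any 1 of the 6 libraries of the other stages left out 2 genes passed, against 6.11% and 11.5% of all genes without proestrus libraries 1 and 2, 15.6% and 15.5% without estrus libraries 1 and 2, and 13.7% without either metestrus library.

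In the opposite pairs few genes passed. Srf was lower in estrus than in diestrus, 1 of 31 genes (3.23%), where 23.8% of all genes passed, 13.9% higher and 9.97% lower. Both estrus libraries lay above both of diestrus for Kcnmb1 and Prkg1, and below for 6 genes, Cald1, Synpo2, Itga8, Myocd, Srf and Nexn, beside 32.0% and 30.4% of all genes. Between estrus and diestrus 16 genes passed without diestrus library 2, all lower in estrus, against 23.1% of all genes. Leaving out library 1 of diestrus gave 6, against 27.4%, of which Myh11, Tagln, Flna, Kcnmb1 and Prkg1 were higher in estrus and Srf lower. Without estrus library 1 (7.07% of all genes) or estrus library 2 (8.69%) edgeR called 0 of the 31, and the fit to the 4 libraries of the pair also called 0, against 11.1%. The fits without a diestrus library gave opposite directions for the 31 genes as a list, since the median log2 change of estrus over diestrus was -0.70 without library 2 and 0.29 without library 1.

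Synpo2, Srf and Prkg1 rose in metestrus relative to proestrus, 3 of 31 genes (9.68%), where 16.9% of all genes passed, 6.68% higher and 10.3% lower. Both metestrus libraries lay above both of proestrus for 12 genes and below for 3, Actg2, Kcnmb1 and Kcnma1, beside 35.0% and 34.6% of all genes. The median log2 change was 0.17, beside 0.01 over all genes. Without diestrus library 1 or 2, 7 and 6 genes passed, against 26.5% and 26.3%, and the fit to the 4 libraries of the pair called 6, all higher, against 28.1%. Synpo2, Synm, Srf, Prkg1 and Nexn were called in all 3. There was 1 call without estrus library 1 (against 9.97% of all genes). There were 0 without estrus library 2 (9.99%), metestrus library 1 (1.64%), metestrus library 2 (0.0843%), proestrus library 1 (2.50%) or proestrus library 2 (8.06%).

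Other genes of the same pathways were taken from 4 lists. Whole-uterus RNA does not show which cells held their transcripts. Of 27 genes of calcium entry, calcium stores and other ion channels, 26 were tested and 16 changed across stages, in the test that called 39.1% of all genes. In the pairs, 8 passed between estrus and proestrus (6 higher and 2 lower, against 15.1% of all genes), 11 between metestrus and estrus (5 higher and 6 lower, against 36.2%), and 12 between proestrus and diestrus (1 higher and 11 lower, against 22.4%). Kcnn3, a small-conductance potassium channel, had 19.6 to 21.9 CPM in proestrus, 18.5 to 24.5 CPM in estrus, 75.2 to 89.8 CPM in metestrus and 78.9 to 97.9 CPM in diestrus. It rose in metestrus relative to estrus by 1.94 ± 0.19 (log2, adjusted p = 0.00181). Ano1, a chloride channel opened by calcium, had 21.4 and 31.1 CPM in proestrus and 123 and 158 CPM in diestrus, with -2.42 ± 0.22 for proestrus over diestrus (adjusted p = 0.00159). Stim1, the calcium sensor of the stores, rose in estrus by 1.06 ± 0.09 relative to proestrus (adjusted p = 0.00312) and Itpr3, an inositol trisphosphate receptor, fell in metestrus with a log2 change of -1.82 ± 0.15 relative to estrus (adjusted p = 0.00128).

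The 11 genes of the cGMP and cAMP relaxation pathway include 9 that changed across stages, beside 39.1% of all genes. Pde5a, the phosphodiesterase that degrades cGMP, had 45.5 and 50.9 CPM in proestrus, 280.5 and 299 CPM in estrus, 77.9 and 81.4 CPM in metestrus, and 231 and 141 CPM in diestrus. Its estrus libraries were the highest of the 8 and its proestrus libraries the lowest, as for Prkg1. It rose in estrus relative to proestrus by 2.59 ± 0.23 (log2, adjusted p = 0.00312), and fell in metestrus relative to estrus with a log2 change of -1.86 ± 0.23 (adjusted p = 0.00289). Rgs2, which shortens signals of Gq-coupled receptors and is a target of cGMP kinase, rose in estrus by 1.44 ± 0.35 relative to proestrus (adjusted p = 0.0404), and in diestrus by 2.62 ± 0.37 relative to metestrus (adjusted p = 0.0478), with 568 and 261 CPM in diestrus libraries 1 and 2. Pde1a, a phosphodiesterase regulated by calmodulin, and Gucy1a1, a subunit of the nitric oxide receptor, were lower in proestrus than in diestrus with a log2 change of -1.73 ± 0.19 and -1.60 ± 0.24 (adjusted p = 0.00275 and 0.00623). In diestrus libraries 1 and 2, Pde1a had 40.4 and 29.6 CPM and Gucy1a1 60.1 and 37.6 CPM.

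Of 19 tested SRF cofactors and transcription factors of smooth muscle, 7 changed across stages, beside 39.1% of all genes. Klf4, a factor known to repress contractile genes, had 485 and 390 CPM in proestrus and 64.0 to 165 CPM in the other 6 libraries. It fell in estrus relative to proestrus with a log2 change of -1.61 ± 0.36 (adjusted p = 0.0317). Heyl, a Notch target, rose in metestrus relative to estrus by 1.79 ± 0.29 (adjusted p = 0.00627). Hif3a, a hypoxia-inducible factor subunit, had 49.4 and 17.4 CPM in diestrus and 0.982 to 1.75 CPM elsewhere, and was higher in diestrus than in metestrus by 4.82 ± 0.56 (adjusted p = 0.0336). Tbx18, a factor of mural cells, had 0.154 to 2.52 CPM and was lower in proestrus than in diestrus with a log2 change of -3.29 ± 0.44 (adjusted p = 0.0046). Of 32 genes of dense plaques, dense bodies and costameres, 9 changed across stages, beside 39.1% of all genes. Dmd (dystrophin) and Palld (palladin, an actin scaffold) rose in estrus relative to proestrus by 1.15 ± 0.12 and 1.16 ± 0.13 (adjusted p = 0.00466 and 0.00532). Cav1, the coat protein of caveolae, fell with a log2 change of -0.79 ± 0.16 in that pair (adjusted p = 0.0251), and Pdlim3, a partner of alpha-actinin, was lower in proestrus than in diestrus with a log2 change of -1.37 ± 0.26 (adjusted p = 0.0147), with 632 and 353 CPM in diestrus libraries 1 and 2.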

How the data were processed

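The deposited table holds the authors' read counts per gene, not normalised: its 8 columns contain only integers and their totals differ. The submitters' processing notes name STAR, featureCounts of Subread and the build GRCm38 (mm10). The sources used here give neither versions nor the annotation or strand setting. Per the labels' protocols, the libraries came from a stranded kit for mRNA.

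GENCODE M21 supplied symbols, exon lengths and overlaps and held 52058 of the 52308 identifiers. Genes were filtered with filterByExpr by stage and tested with edgeR 4.0.16 in R 4.3.3, with TMM factors from 0.8975 to 1.111. The quasi-likelihood fit, with a mean for each stage, used all 8 libraries and left 4 residual degrees of freedom. The 3 differences between stages were tested together, then the 6 pairs, by two-sided F tests, adjusted by Benjamini-Hochberg over all 18114 genes. The SE is the log2 fold change divided by the square root of F. Levels are CPM with TMM factors. The procedure was tested on simulated data. All 31 genes are named, and from each of 4 pathway lists up to 4 genes with the smallest p across stages that passed. Another list is not reported here.

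The genes and lists were chosen with earlier results of these data known. Alternatives were DESeq2 1.42.0 and its size factors, limma-voom (limma 3.58.1), other filters, a replicate block, the 4 libraries of a pair, each library left out, and scaling on the 31 genes.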

Additional observations from a re-analysis of the deposited data

How the results depend on the processing

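No gene called in a pair changed its direction under the alternatives run. The median change of the 31 genes did in the 3 pairs with diestrus without diestrus library 1, and for metestrus over estrus without metestrus library 2 (0.09). Scaled on the 31 genes, that median was -0.03 for estrus over proestrus, 0.01 for metestrus over estrus and -0.03 for diestrus over metestrus. Such values near 0 are fixed in advance by that scaling and show no change of direction. The counts of called genes, out of 31, moved as follows, with the share of all genes called under the same setting. The fits that left out a library are given as ranges without that share, which also varied between those fits. With DESeq2 they were 9 across stages (47.1%), 6 for estrus over proestrus (3734 of 17762 genes), 5 for metestrus over estrus (37.7%), 1 for diestrus over metestrus (6.40%), 8 for proestrus over diestrus (25.5%) and 4 for estrus over diestrus (27.9%). With no filter on low counts they were 8 across stages (24.4%), 5 for metestrus over estrus (20.3%), 1 for diestrus over metestrus (1.44%) and 3 for estrus over diestrus (14.6%), and for that last pair 2 with limma-voom (23.4%) and 2 with a filter at 1 CPM in 2 libraries (26.4%). In fits to the 4 libraries of a pair they were 10 for estrus over proestrus (20.1%), 13 for metestrus over estrus (47.2%), 1 for proestrus over diestrus (6.62%), 0 for estrus over diestrus (11.1%) and 6 for metestrus over proestrus (28.1%). Scaling on the 31 genes left 0 across stages (14.6%), 0 for estrus over proestrus (4.16%), 0 for metestrus over estrus (11.7%), 0 for metestrus over proestrus (5.08%) and 2 for proestrus over diestrus (9.26%). For estrus over diestrus it called 1 (9.15%), but that gene was Kcnmb1, higher in estrus, and Srf had an adjusted p of 0.58. Fits without one library gave 2 to 26 across stages, 0 to 13 for estrus over proestrus, 0 to 11 for metestrus over estrus, 0 to 10 for diestrus over metestrus, 2 to 18 for proestrus over diestrus, 0 to 16 for estrus over diestrus and 0 to 7 for metestrus over proestrus; a lone library is assumed to vary like the other stages. The cause of these shifts was not tested. Replicate deviations correlated by -0.0926 to 0.145 between stages. Library 1 was nevertheless the higher one for most of the 31 genes at every stage. Whether the replicate number carries an effect shared by these genes was not tested. With the replicate number as a block the counts were 8 across stages (39.1%), 5 for estrus over proestrus (16.6%), 6 for metestrus over estrus (36.7%), 8 for proestrus over diestrus (22.6%) and 3 for estrus over diestrus (24.8%). The summed CPM of the 31 genes in each stage moved by less than 1 SD under other scalings, but each SD came from 2 libraries. The order of the stage means changed. With TMM factors they were 20118 CPM in proestrus, 20653 CPM in estrus and 19712 CPM in metestrus. With raw library totals they were 18566, 19585 and 21027 CPM. Diestrus had the highest mean in both, 25225 and 26366 CPM. With 2 libraries per stage, small changes were not detectable where the libraries of a stage differed, as in diestrus.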
